A study of Mus musculus with 4 samples.

Results

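The 10 genes described here encode the weapons and switches of killer lymphocytes: 4 granzymes (Gzma, Gzmb, Gzmk and Gzmm), perforin (Prf1), the granule protein Nkg7, the death ligand Fasl, the transcription factor Eomes, the receptor Crtam and the chemokine Ccl5. Their chromatin was examined in naive CD4 T cells, helper T cells at rest before their first encounter with antigen. Members were the accessible regions overlapping a gene body or the 30 kb on either side of it, which gave 41 of the 64525 regions in the list, and no region fell in the windows of 2 genes. ATAC-seq, an assay that marks open DNA by the insertion of adapters with a transposase, had been run on 4 libraries: 2 from wild-type (WT) mice and 2 from mice labelled DDX55 KO, all from spleen and pLN. Ddx55 encodes a DEAD-box RNA helicase; the labels give no age, strain, Cre driver or number of animals. The deposited list joins the regions of all 4 libraries without a height, library or genotype, so all values below describe both genotypes together, without a standard deviation, and the genotypes were not compared here.

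Cytotoxic lymphocytes kill by 2 routes. In the granule route perforin opens a way into the target cell for granzymes, serine proteases that cleave death substrates. In the other route Fas ligand engages the receptor Fas. CD8 T cells and natural killer cells are the classical users, the T-box factors Eomes and T-bet and the RUNX factors are known to drive the genes, and CD4 T cells can acquire the programme after activation.

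The cell type label was checked at marker genes. All 6 naive CD4 T cell markers (Cd4, Cd3e, Ccr7, Tcf7, Lef1 and Il7r) had a region within 1 kb of their start, or of either annotated end where the reference lists no start. Under this rule 52.9% of all 21887 protein-coding genes had one. The same was found at 0 of 4 B cell markers, 1 of 4 myeloid markers (Csf1r), 2 of 4 natural killer cell markers (Klra8 and Klre1) and 1 of 2 CD8 T cell markers (Cd8b1). Of 4 markers of memory or effector T cells, Cd44 and Cxcr3 had one, and Il2rb and Klrg1 did not. Ncr1 and Lyz2, defining genes of natural killer and myeloid cells, had 0 regions within 30 kb. The other natural killer cell markers had 9 (Klre1), 8 (Klrb1c) and 3 (Klra8) regions in the same window. The other myeloid markers had 7 (Itgam), 4 (Adgre1) and 1 (Csf1r). A region from a few cells and a region from all cells cannot be told apart in this list, and the part of other cells in the results was not tested.

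Accessible starts were found at Gzmb, Prf1 and Fasl, and their promoters are shown here beside 3 promoters without a region, those of Gzma, Gzmk and Nkg7. Each line gives the 250 bases before the annotated start, from RefSeq on GRCm38.p6 (mm10), 5′ to 3′ on the strand of the gene. Capitals mark matches, on either strand, to 7 short motifs: TGTGGT for RUNX, AGGTGTGA for T-box factors, GGAAGT for ETS, TGANTCA for AP-1, CTTTGA for TCF/LEF, TTCNNNGAA for STAT and TATAAA for the TATA box. No match overlapped another in these promoters.
Gzmb, accessible, chr14:56262335-56262584, minus strand: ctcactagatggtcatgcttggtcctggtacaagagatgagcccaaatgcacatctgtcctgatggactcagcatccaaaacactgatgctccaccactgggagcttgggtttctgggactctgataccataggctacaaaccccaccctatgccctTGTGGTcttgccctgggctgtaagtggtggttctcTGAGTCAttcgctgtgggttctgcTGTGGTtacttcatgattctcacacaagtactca
Prf1, accessible, chr10:61297586-61297835, plus strand: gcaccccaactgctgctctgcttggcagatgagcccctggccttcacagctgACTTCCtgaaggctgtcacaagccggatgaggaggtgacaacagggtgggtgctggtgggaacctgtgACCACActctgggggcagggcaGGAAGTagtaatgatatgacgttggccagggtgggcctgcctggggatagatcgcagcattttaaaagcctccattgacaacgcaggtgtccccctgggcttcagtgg
Fasl, accessible, chr1:161788496-161788745, minus strand: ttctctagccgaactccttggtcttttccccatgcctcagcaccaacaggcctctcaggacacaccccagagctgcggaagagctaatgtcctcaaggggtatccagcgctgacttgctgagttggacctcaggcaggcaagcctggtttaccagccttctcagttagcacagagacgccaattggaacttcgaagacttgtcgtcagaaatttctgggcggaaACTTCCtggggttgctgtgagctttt
Gzma, no region, chr13:113100982-113101231, minus strand: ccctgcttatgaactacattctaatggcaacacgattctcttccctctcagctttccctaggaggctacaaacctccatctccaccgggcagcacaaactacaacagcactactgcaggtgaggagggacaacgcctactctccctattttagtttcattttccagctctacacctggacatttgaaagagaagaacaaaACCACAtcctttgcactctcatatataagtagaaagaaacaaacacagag
Gzmk, no region, chr13:113180966-113181215, minus strand: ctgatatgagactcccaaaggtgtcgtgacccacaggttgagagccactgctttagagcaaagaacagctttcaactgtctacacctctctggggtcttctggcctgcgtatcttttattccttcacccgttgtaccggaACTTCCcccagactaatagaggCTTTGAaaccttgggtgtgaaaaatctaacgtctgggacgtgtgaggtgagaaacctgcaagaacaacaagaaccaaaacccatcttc
Nkg7, no region, chr7:43436888-43437137, plus strand: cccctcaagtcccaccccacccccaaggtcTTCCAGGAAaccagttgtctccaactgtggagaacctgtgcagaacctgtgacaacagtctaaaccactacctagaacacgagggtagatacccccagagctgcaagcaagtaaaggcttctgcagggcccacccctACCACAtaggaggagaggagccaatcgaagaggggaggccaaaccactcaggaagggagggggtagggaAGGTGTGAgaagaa

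The Gzmb promoter held 2 RUNX matches, at 93 to 88 and 34 to 29 bases before the start, and an AP-1 match at 58 to 52. The Prf1 promoter held a RUNX match 130 to 125 bases before the start between 2 ETS matches. In Fasl an ETS match at 26 to 21 bases was the only match. Among the promoters without a region, Nkg7 held a T-box match 14 to 7 bases before the start, a RUNX match and a STAT match. Gzma held a RUNX match 50 to 45 bases before the start, and Gzmk held an ETS and a TCF/LEF match. Of the promoters without a region that are not shown above, that of the first Gzmm start held a RUNX and a STAT match. Those of the second Gzmm start and of Eomes held no match to any of the 7 motifs. The letters of the RUNX motif were thus present in 5 of the 9 promoters listed for 8 of the genes (Gzma, Gzmb, Gzmm, Prf1 and Nkg7). They occurred in 12.4% of the 21263 promoters of protein-coding genes and in 17.3% of those with 5 CpG dinucleotides or fewer. For the T-box letters, held by 1 of the 9, the shares were 0.997% of all promoters and 1.48% of those with 5 CpGs or fewer. For ETS, held by 3, they were 20.4% and 18.8%, and for STAT, held by 2, they were 6.58% and 8.70%. For AP-1, held by 1, they were 6.13% and 10.2%, and for TCF/LEF, held by 1, they were 12.7% and 17.9%. The exact letters TATAAA, in 0 of the 9, were in 11.6% and 21.8%. Variants of the TATA box were not searched. The Gzma promoter above and that of Eomes hold the letters tatataag, so a lack of TATA boxes is not shown. RUNX letters lay in promoters with a region and in promoters without one. A match is a run of letters, not a shown binding site.

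A region reached the window from 250 bases before to 50 after the start in 3 of the 8 genes with a listed start, Gzmb, Prf1 and Fasl, against 49.2% of the 17492 protein-coding genes with one. Within 1 kb of the start the count was 5 of 10, with Eomes and Crtam added, against 52.9% of all 21887 protein-coding genes under the same rule. The reference lists no start for Crtam and Ccl5, so either annotated end counted for them. A region overlapped the gene body in 5 of 10 genes, against 65.5% of all, and all 10 had at least 1 region in the body and 30 kb flanks, against 86.6% of all. The shares of accessible starts and bodies were thus near or below those of all genes. The 10 genes are short, with a median length of 7.05 kb against 17.2 kb over all genes. A shorter body has less room for a region, and the shares were not matched for length. From the start to the nearest region the median was 2.92 kb over the 8 genes and 0.212 kb over all genes with a listed start.

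These promoters all held fewer CpG dinucleotides than the median promoter, and promoters with 5 or fewer were seldom accessible. The 9 promoters had a median of 3 CpGs in 250 bases, against 10 over all promoters, 17 over promoters with a region and 3 over promoters without one. Gzmb had 1 CpG, and a region covered all 250 bases of its promoter, whereas 4.92% of the 4801 promoters with 0 to 2 CpGs had a region. Nkg7, with 2 CpGs, had none. Prf1 had 4 CpGs and a region over 208 of the 250 bases, in a class of 3 to 5 CpGs where 16.8% of promoters had a region; Gzma and both starts of Gzmm, with 3 each, had none. Fasl had 7 CpGs and was covered over all 250 bases, in a class of 6 to 11 CpGs where 50.1% had a region; Gzmk with 6 and Eomes with 8 had none in the promoter window. With 12 or more CpGs, a class that held none of the 8 genes with a listed start, 76.8% of promoters had a region. No CpGs could be counted for Crtam and Ccl5.

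**Figure D1:**
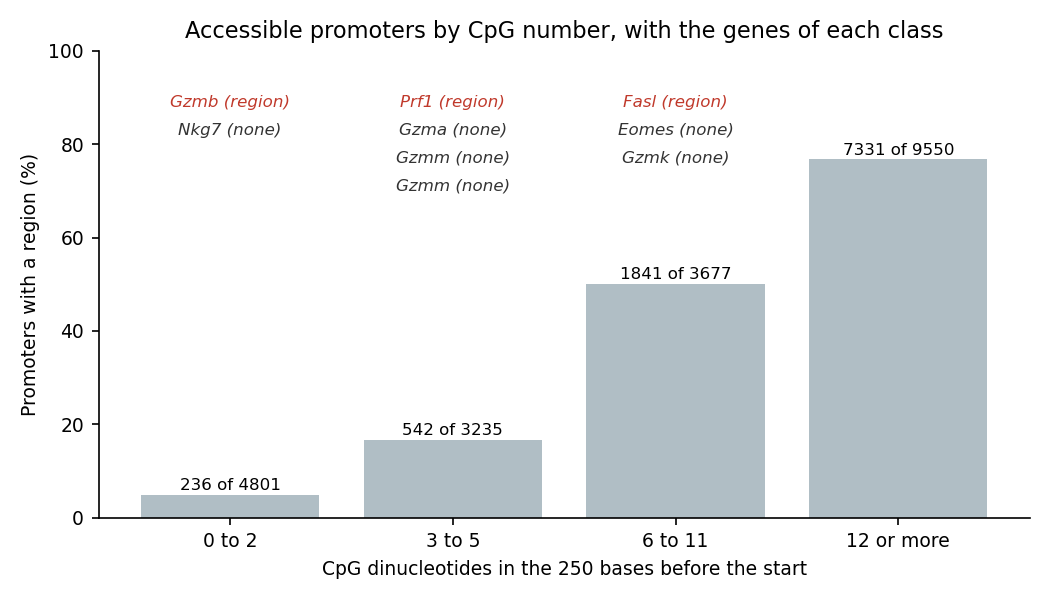
Bars show the share of promoters of protein-coding genes with an accessible region (percent, vertical axis) in 4 classes of CpG number in the 250 bases before the start (horizontal axis), with the numbers of promoters above them. The names are the genes of each class with a listed start, Gzmm standing once for each of its 2 starts; 1 promoter with a region (Gzmb, Prf1 or Fasl) lies in each of the 3 lower classes, where the shares were 4.92%, 16.8% and 50.1%.

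Among the granzymes, Gzmb was the 1 gene of the family with a region at its start. Gzmb (chromosome 14, 56258836 to 56262334, gene ID 14939) encodes the protease that activates caspases in the target cell. Its start lay inside a region of 491 bp at 56262259 to 56262749. Regions of 150 and 211 bp lay 14.0 and 22.1 kb upstream of the start, the first over the pseudogene Gm48200, and a region of 340 bp lay 17.9 kb past the other end, inside the neighbouring granzyme gene Gzmc. The region at the start was thus the widest of the 4, and 2 of the others were below the 294 bp median width of all regions on assembled chromosomes. Of the 7 granzyme genes on chromosome 14, Gzmb had 4 regions in its window, Gzmc had 3, and Gzmd, Gzme, Gzmf, Gzmg and Gzmn had 2 each. The windows of neighbours overlap, so these counts share regions. The region at the Gzmb start, for example, also lay in the Gzmc window. None of those 6 neighbours had a region within 1 kb of its start. The family has close copies there, and the part of reads that fit several places in these counts was not tested.

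Gzma (chromosome 13, 113093824 to 113100981, gene ID 14938) encodes a granzyme of trypsin-like specificity and lies inside the longer gene Cdc20b. Its body held no region. The nearest, 266 bp wide, lay 5.01 kb upstream of the start at 113105990 to 113106255, and the others, 241 and 331 bp wide, lay 29.6 kb downstream and 26.6 kb upstream. Of protein-coding genes with a listed start, 61.8% had a region nearer to it than Gzma did. Gzmk, a trypsin-like granzyme whose body begins 70.6 kb past that of Gzma (113171630 to 113180965, gene ID 14945), had the fewest regions of the 10 genes. Its 1 region was wide, 838 bp at 113197931 to 113198768, and lay 17.0 kb upstream of the start inside the noncoding gene Gm41069, nearer to Esm1, an endothelial gene, than to Gzmk. A region lay nearer to the start in 75.0% of genes. The window of Gzmk therefore had the lowest density of the 10, with 1.44 regions per 100 kb, although its region was wider than any around Gzma.

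Gzmm (chromosome 10, 79689020 to 79695261, gene ID 16904), a granzyme known mainly from natural killer cells, had 4 regions in its window and 0 in its body. All 4 lay at starts or ends of other genes: Madcam1, a vascular adhesion molecule (262 bp wide), Tpgs1, a tubulin-modifying subunit (1063 bp), Cdc34, a ubiquitin-conjugating enzyme (653 bp), and Bsg, which encodes basigin (735 bp). The nearest to the Gzmm start was the region at Cdc34, 6.82 kb upstream. Counting regions within 30 kb thus gave Gzmm as many as Gzmb, while none had Gzmm as its nearest protein-coding gene and 3 of 4 had Gzmb.

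Perforin was accessible immediately before its start. Prf1 (chromosome 10, 61297751 to 61304684, gene ID 18646) had a region of 911 bp at 61296883 to 61297793, the widest of the 5 regions assigned to the starts of these genes. It ended 43 bp before the listed start (position 61297836). It counted as overlapping the gene body only because the annotated body begins before that start, at 61297751. A second region of 363 bp lay 1.46 kb past the end of the gene. The other 2, of 232 and 409 bp, lay 24.0 and 21.6 kb upstream and nearer to Adamts14, a metalloprotease gene; the first was at its start.

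Nkg7, which encodes a granule membrane protein needed for granule release, had no region at its start or in its short body (chromosome 7, 43437138 to 43438246, gene ID 72310). Its window held 4 regions, all nearer to other genes. A region of 1396 bp lay 6.20 kb downstream of the Nkg7 start, at the start of Etfb, an electron transfer flavoprotein subunit. A region of 1432 bp lay 28.1 kb downstream over Vsig10l and the start of the noncoding gene Gm39000. Regions of 446 and 181 bp lay 13.6 and 13.1 kb upstream, outside protein-coding genes. The window had 11 ends of other protein-coding genes, the most among the 10, and Gzmm was next with 9.

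Fasl had the most regions of the 10 genes and the highest density. Fasl (chromosome 1, 161780691 to 161788495, gene ID 14103) encodes Fas ligand, the death ligand that also ends T cell responses. Its 9 regions amounted to 13.3 per 100 kb, and 98.5% of protein-coding genes had a lower density. A region of 694 bp at 161788073 to 161788766 contained the start. Upstream lay regions of 561, 882 and 559 bp, at 6.07, 15.8 and 20.7 kb from the start. Past the other end of the gene lay regions of 282, 342, 1499, 571 and 883 bp, at 1.26, 5.25, 13.2, 18.8 and 29.1 kb from the body. The widest of these, at 161766014 to 161767512, was also the widest in any of the 10 windows and covered the start of the noncoding gene Gm31869. Regions took up 9.25% of the Fasl window, against 0.845% at Ccl5 and 5.65% at Nkg7, the next highest. No other protein-coding gene had a region at its start in the Fasl window, and Fasl was the nearest protein-coding gene for 7 of the 9 regions. The other 2 lay nearer to Suco.

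**Figure D2:**
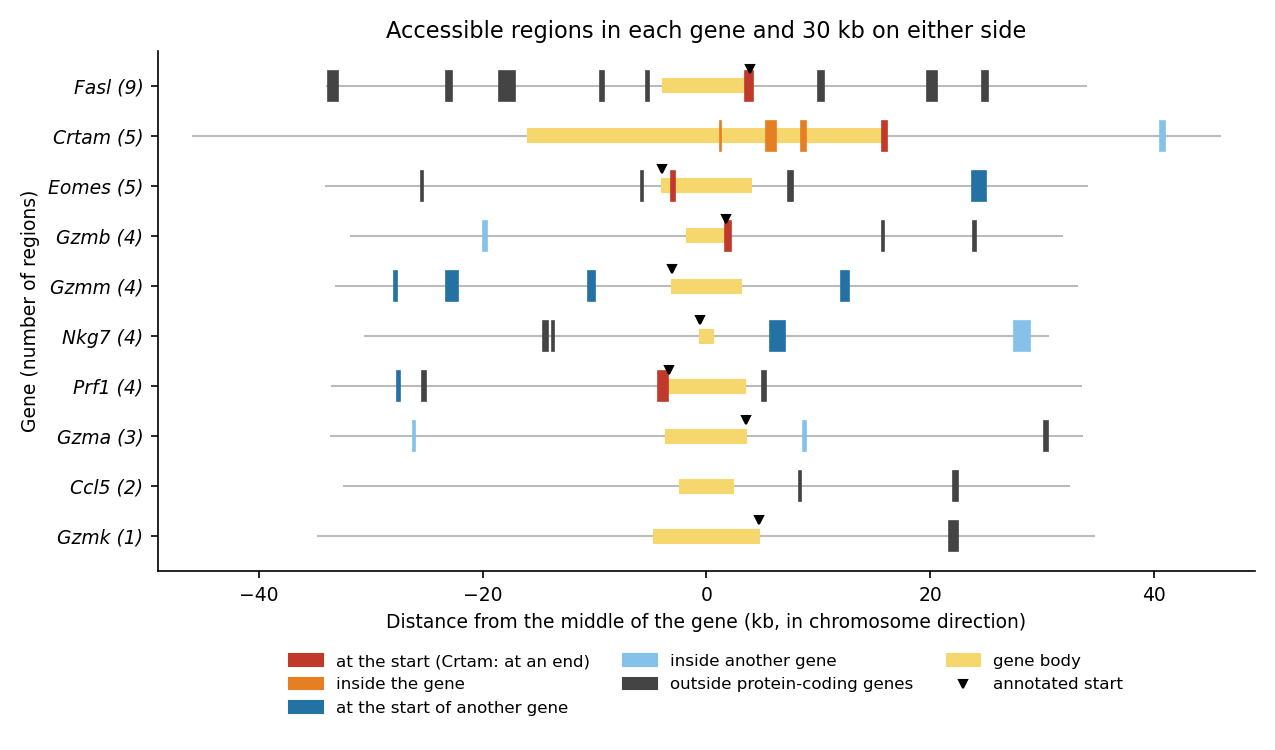
Each row is 1 gene with its window to scale, in kb from the middle of the gene in chromosome direction, with the number of regions in brackets; boxes are accessible regions coloured by position, the yellow bar is the gene body and the triangle the first listed start. Fasl shows 9 regions on both sides of its start, Crtam 3 inside its body and 1 across its upper end, and Gzmm 4 at other genes.

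Eomes, the T-box factor of CD8 memory and natural killer cells, had a region inside the gene and none in its promoter window. The gene (chromosome 9, 118478186 to 118486132, gene ID 13813) held a region of 341 bp at 118479020 to 118479360, which began 0.831 kb downstream of the start. Narrow regions of 176 and 166 bp lay 1.71 and 21.3 kb upstream. A region of 522 bp lay 3.27 kb past the gene, at the start of the noncoding gene Gm33460, and one of 1275 bp covered an end of Golga4, which encodes a Golgi protein. Eomes was the nearest protein-coding gene for the 4 other than that at Golga4, and its density of 7.36 per 100 kb was second to that of Fasl.

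Crtam was the 1 gene of the 10 with regions deep in its body. It encodes an adhesion receptor that appears on activated CD8, natural killer and cytotoxic CD4 T cells and binds Cadm1. The gene (chromosome 9, 40972798 to 41004628, gene ID 54698) is the longest of the 10 at 31.8 kb. Regions of 146, 926 and 383 bp lay inside it, between 40989909 and 40997583. Another of 423 bp, at 41004401 to 41004823, covered its upper end. The last, 430 bp wide, lay 24.7 kb above the gene inside Ubash3b, a phosphatase gene that dampens T cell receptor signalling. Per 100 kb the whole window held 5.45 regions, below the 6.30 of Gzmb.

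Ccl5 encodes a chemokine released by effector T cells. The gene (chromosome 11, 83525778 to 83530518, gene ID 20304) had no region in its body or within 1 kb of either end. Its 2 regions, of 159 and 388 bp, both lay above it, at 5.91 and 19.7 kb, the first inside the noncoding gene Gm32650. Ccl5 was nevertheless the nearest protein-coding gene for both. At 3.09 regions per 100 kb its density was the lowest but for Gzmk.

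By position, 5 of the 41 regions lay within 1 kb of the start of their gene (for Crtam, of an end) and 3 lay elsewhere in its body. A further 7 lay at the start or end of another protein-coding gene, 5 inside another one and 21 outside protein-coding genes. The nearest protein-coding gene was the cytotoxic gene for 22 regions and another gene for 19. Regions in the windows had a median width of 423 bp, with quartiles of 266 and 735 bp, against 294 bp for all regions on assembled chromosomes, with quartiles of 207 and 535 bp. The widest class was that at other genes, with a median of 735 bp, against 491 bp at the starts of the 10 genes and 388 bp outside protein-coding genes.

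Counted per 100 kb of window, the 10 genes had a median of 6.01 regions, against 3.56 over all protein-coding genes, a ratio of 1.69. Density moves with the number of gene ends in a window, so genes were also set beside others with a like number. With 0 or 1 other gene end, Gzma, Gzmk, Fasl and Eomes had a median of 5.91 per 100 kb against 2.27 over 7525 genes. With 2 to 4, Gzmb, Prf1, Crtam and Ccl5 had 5.71 against 3.56. With 9 or more, Gzmm and Nkg7 had 6.29 against 7.58. By gene, 6 of the 10 lay above the median of their class: Gzma, Fasl, Eomes, Gzmb, Prf1 and Crtam. The other 4, Gzmk, Ccl5, Gzmm and Nkg7, lay below it. These classes were not matched for gene length.

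**Figure D3:**
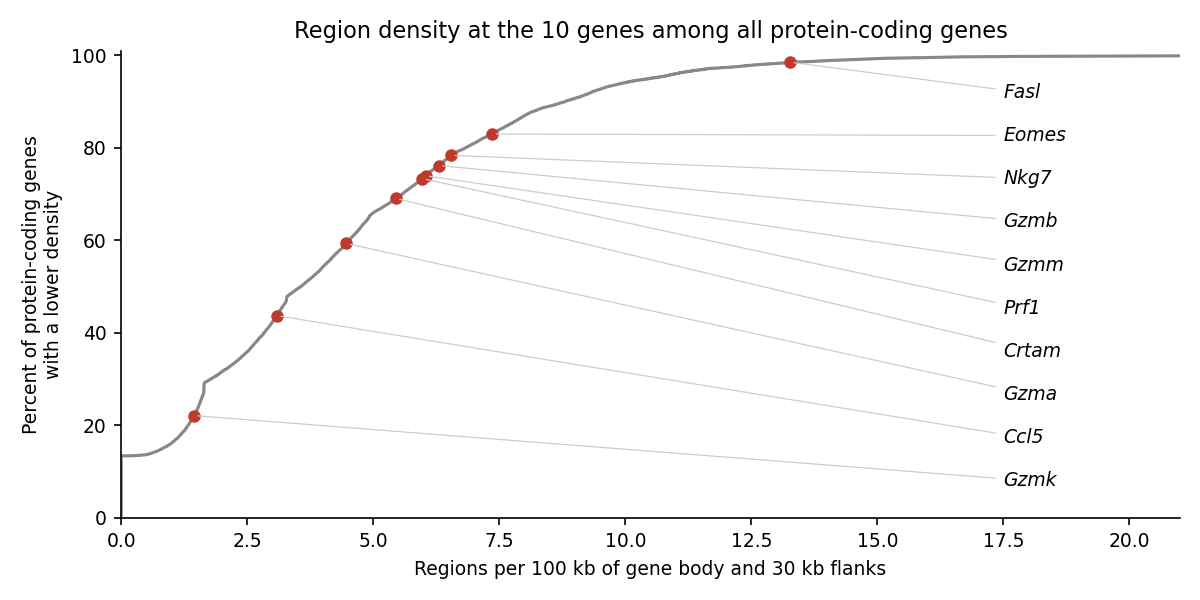
The curve gives, for each density of regions per 100 kb of gene body and 30 kb flanks (horizontal axis), the percent of protein-coding genes with a lower density (vertical axis); points are the 10 genes. Fasl lies at 98.5%, Gzmk at 22.1%, Ccl5 at 43.7%, Gzma at 59.3% and the other 6 genes from 69.1% (Crtam) to 83.0% (Eomes).

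Other genes listed for the cytotoxic pathway are described by role, in groups of 2 to 9 genes. The groups were formed after the values were seen, and no test of the difference between them was made. The list was not limited to genes that promote killing, and it also holds granzyme inhibitors and Zbtb7b, a factor of the CD4 lineage. Of the 38 genes in the list, 24 had a region within 1 kb of the start (63.2%, against 52.9% of all genes). A start is listed for 29 of the 38, and for the rest either annotated end counted. The median was 4 regions per window against 3. The transcription factors had one in 6 of 6 genes: Tbx21, which encodes T-bet, Runx3 with 11 regions in its window, Bhlhe40 with 9, Zeb2 with 8, Zbtb7b with 7 and Hopx with 4. The genes of granule loading and release had one in 8 of 9, among them Ctsw, a cathepsin with 9 regions, Rab27a and Srgn, a GTPase of granule docking and the granule proteoglycan, with 8 each, and Ctsc, the protease that activates granzymes, with 6. The exception was the lysosomal membrane gene Lamp1, whose nearest region lay 29.3 kb from its start. Both granzyme inhibitors, Serpinb9 and Serpinb6b, and all 3 genes of the death receptor arm, Fas, Fadd and Tnfsf10, had one.

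In the remaining groups the shares were lower. Of the 6 other granzymes 0 had a region at the start, and over all 10 granzyme genes the count was 1. Of 8 surface receptors 3 had one: Cd226 with 15 regions in its window, Slamf7 with 8 and Cd8b1 with 4. Cd8a, Klrd1, Klrk1, Klrg1 and Cadm1 did not. Of 4 genes of cytokines and chemokines, Ccl3 and Ccl4 had one, and Ifng and Xcl1 did not. For Ccl4, which has no listed start, either annotated end counted. Its annotated body overlaps that of Ccl3, so a region there can count for both genes. Ifng had 5 regions in its window, the nearest 17.8 kb from the start.

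**Figure D4:**
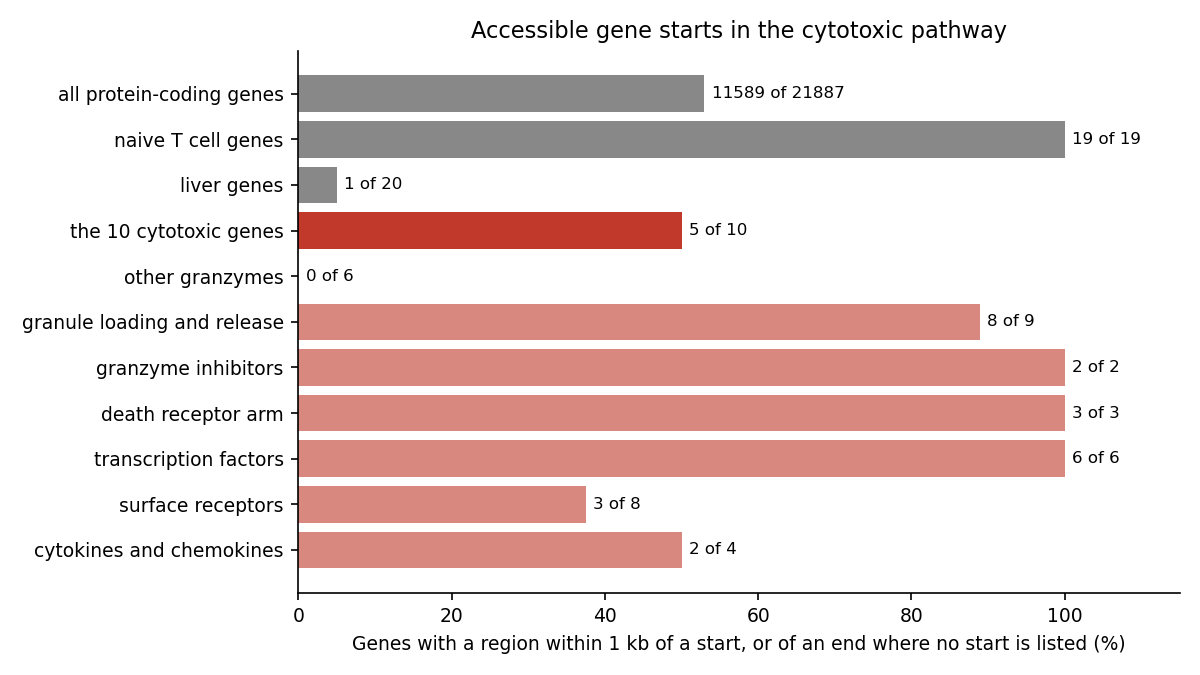
Bars give the share of genes with an accessible region within 1 kb of a start, or of an end where no start is listed (percent, horizontal axis), with the numbers beside them, for all genes, 2 comparison lists, the 10 cytotoxic genes and 7 role groups of the pathway list. The 10 genes stand at 5 of 10, the transcription factors at 6 of 6 and the other granzymes at 0 of 6.

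Beside 2 comparison lists the 10 genes lay in between. Of 19 naive T cell genes, such as Cd3e, Lck and Tcf7, all 19 had a region at the start, with a median of 9 regions per window and 10.3 per 100 kb. Of 20 liver genes 1 had one (Apoa2), with medians of 1.5 regions and 2.10 per 100 kb. The 10 cytotoxic genes had 5 of 10, 4 and 6.01. Fasl, at 13.3 per 100 kb, was above the median of the naive T cell genes, and Gzmk, at 1.44, below that of the liver genes. These are counts over chosen lists from 1 pooled list, and no test was made of them.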

How the data were processed

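ATAC-seq was performed on 4 libraries. Per the submitters' processing notes, fastp 0.12.4, Bowtie2, SAMtools 1.15.1, MACS3 3.0.0b1 and build mm10 were used; the sources used here do not give their roles, the peak threshold or the handling of duplicate and multiply mapped reads. The authors deposited 1 list of start and end positions (in bp), with no score or count; depth per library is unknown, and no interval or test between libraries could be made. Positions were converted to 1-based. Genes, starts and promoter sequences came from RefSeq (GRCm38.p6). All 10 genes matched the gene table and 8 the promoter table. The gene table also holds genes placed at the very start of a chromosome, such as LOC100041708 at 194 to 21836 of chromosome 1, with 0 regions. They were kept in the shares and medians over all genes, and by how much they lower these was not tested. Where promoter windows on opposite strands overlapped, the sequences were reverse complements in 816 of 816 cases. An overlap of 1 bp counted. The counting was tested on simulated data. Analyses used Python 3.11.15, pandas 2.3.3, numpy 2.4.6 and matplotlib 3.10.9.

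The members and lists were chosen with earlier results of these data known. Genes named were the 10 members, other protein-coding genes whose ends in the windows had a region, and the 5 pathway genes with the most regions; no pathway gene had 0. Other names, the role groups, the classes of gene ends and the CpG classes were chosen after the values were seen. The pathway list had 39 names, of which 38 matched (Gzmh did not); some genes first planned for the lists are not reported here and are in no count of a list. Alternatives were other flanks and start windows, the middle of the region, regions of 300 bp or wider, merging of regions under 500 bp apart, the nearest gene only and autosomal genes only.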

Additional observations from a re-analysis of the deposited data

How the results depend on the processing

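The 41 regions became 8 in gene bodies alone, 19 with flanks of 10 kb and 22 when the nearest protein-coding gene had to be the cytotoxic gene; each of these settings counts fewer regions by construction. With flanks of 50 kb there were 53, with regions of 300 bp or wider 29, with merged regions 40, and with the middle of the region 41. The 5 genes with a region at the start became 3 in the promoter window of 250 bases before to 50 after the start, where Eomes and Crtam were lost, the latter because its start is not listed. They became 4, without Eomes, with 500 bp on each side or the middle of the region, and were 5 with 2 kb or with wider regions. The ratio of 1.69 in median density ranged from 1.4 with flanks of 50 kb to 2.09 with regions of 300 bp or wider. By gene, the count moved by over 1.5 times for 9 of 10 genes with flanks of 10 kb, 9 in bodies alone, 5 by nearest gene, 4 with wider regions and 2 with flanks of 50 kb. No paired analysis was possible because the list has no value per library, and for the same reason no library could be left out. Depth per library is unknown, so the absence of a region says only that the list has none there.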
